A study of Mus musculus with 26 samples.

Results

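The KLF transcription factors described here are 8 genes, Klf2, Klf3, Klf4, Klf6, Klf7, Klf9, Klf10 and Klf13, chosen by name with earlier results of these data known. All probe sets paired with exactly 1 of these symbols were taken, which gave 8 probe sets, 1 for each gene, of 35556 on the array, and 8 of the 19938 genes that could be named. They were measured on 26 arrays from Ba/F3/gp130 cells, a murine pro-B line that grows on IL-3 or Hyper-IL-6 and carries gp130, the signal chain of IL-6 and its relatives. Synthetic receptor cells express IL-10R2 and IL-22Rα1 with a nanobody on the outside, one for mCherry on IL-10R2 and one for GFP on IL-22Rα1. They were given a GFP-mCherry fusion (n = 6), which can bind both chains, or mCherry-Fc (n = 6), a dimer that can bind only the IL-10R2 chain, or were left untreated (n = 6). Natural receptor cells express both chains without nanobodies, as the cytokine IL-22 uses them, and were given IL-22 (n = 4) or left untreated (n = 4).

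All groups share the same history: growth in Hyper-IL-6, 4 washes, starvation for 4 h without serum, and then protein at 100 ng/ml for 2 h where it was given. No group was given a control protein, the labels do not say whether each line is 1 clone, and they do not say that replicates came from separate cultures. The p-values therefore measure the spread between these arrays, which may be technical, and the number of arrays limits their precision. The labels were checked by Socs3 and Il22ra1. Nfkbia and Cish are given beside them, but were named after their values were seen and so do not check the labels. Socs3, a feedback inhibitor of JAK signals, stood at 8.45 ± 0.10 with GFP-mCherry, 8.36 ± 0.07 with mCherry-Fc and 7.42 ± 0.15 untreated in synthetic receptor cells (log2 intensity, mean ± SD, n = 6 each). In natural receptor cells it stood at 11.83 ± 0.06 with IL-22 and 7.53 ± 0.20 untreated (n = 4 each). Nfkbia, the inhibitor of NF-kB and itself one of its targets, stood at 11.73 ± 0.14 with GFP-mCherry, 8.58 ± 0.13 with mCherry-Fc and 8.51 ± 0.15 untreated in synthetic receptor cells, and at 10.95 ± 0.54 with IL-22 and 11.03 ± 0.63 untreated in natural receptor cells. Cish, another feedback inhibitor, stood at 7.73 ± 0.08, 7.11 ± 0.05 and 6.68 ± 0.14 in the same synthetic receptor groups, and at 9.48 ± 0.12 with IL-22 and 7.42 ± 0.48 untreated. Nfkbia and Cish thus differed between the synthetic receptor ligands by more than the spread of their arrays. Il22ra1, by its brightest probe set, had group means of 6.24 to 6.32 in the synthetic and 12.23 to 12.31 in the natural receptor groups. In synthetic receptor cells that probe set read below the median gene (6.53), so it does not show the labelled IL-22Rα1 chain there. Of 11 measured pro-B markers, Cd79a (9.55), Cd79b (8.98) and Vpreb2 (7.13) had a mean above the median gene, while Pax5, Ebf1, Rag1, Rag2, Vpreb1 and Igll1 did not, so the labelled cell type rests on few of its markers here.

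Krüppel-like factors are zinc finger proteins that bind CACCC and GC-rich boxes, the sites that SP factors also bind. They fall into groups by their partners: Klf2, Klf4, Klf6 and Klf7 mainly activate, Klf3 represses through CtBP, and Klf9, Klf10 and Klf13 repress through Sin3. In lymphocytes, Klf2 is known for holding naive T cells at rest and for their traffic, and Klf4 and Klf9 for restraining growth of B cells. Klf10 is an early gene of TGF-beta, Klf9 one of glucocorticoids, and Klf6 is switched on by many stimuli.

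Arrays of the natural receptor line stood apart by their replicate number. Those numbered 4 and 5 had a summed log2 intensity over 7 myeloid marker genes of 60.7 in the 1 IL-22 array and of 58.9 and 60.7 in the 2 untreated arrays. Those numbered 1 to 3 had sums of 48.4 to 48.5 with IL-22 and 48.2 to 48.4 untreated. Itgam, an integrin of myeloid cells, read 12.05 in that IL-22 array and 8.73 to 8.98 in the low-numbered ones. Synthetic receptor arrays had lower sums and a smaller split: 44.3 to 45.3 in high numbers (12 to 15) and 44.6 to 45.1 in low ones (7 to 11) with GFP-mCherry, 44.1 to 44.4 and 45.5 to 45.8 with mCherry-Fc, and 43.6 to 44.4 and 45.4 to 45.8 untreated. In the last pair of groups the ranges did not overlap. Klf6 moved with this split in untreated natural receptor cells, at 8.96 and 8.97 in low numbers and 8.24 and 8.20 in high ones. So did Klf10, at 8.34 and 8.40 in low numbers and 8.57 and 8.72 in high ones. Klf7 did so by less, at 10.08 and 10.11 in low numbers and 10.18 and 10.27 in high ones. Klf9 did so narrowly, at 7.80 and 7.89 in low numbers and 7.90 and 7.93 in high ones. Members also split in synthetic receptor cells. Klf7 read 10.38 to 10.55 in high and 10.16 to 10.26 in low numbers untreated, and 10.02 to 10.11 and 9.87 to 9.94 with mCherry-Fc. Klf10 read 7.96 to 7.98 in high and 8.12 to 8.23 in low numbers untreated, and 7.88 to 8.02 and 8.25 to 8.34 with mCherry-Fc. The ranges did not overlap either for Klf2 and Klf6 untreated, for Klf3, Klf4, Klf9 and Klf13 with mCherry-Fc, or for Klf4 with GFP-mCherry. The share of all genes that split in this way was not counted in either line, so these splits are not read as a trait of the KLF genes. Each comparison was also fitted within each number range alone. The cut between low and high numbers was chosen from an earlier look at these data. Because the high range holds only 1 IL-22 array, that array is assumed there to vary like the other groups. No label calls the number range a batch.

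**Figure D1:**
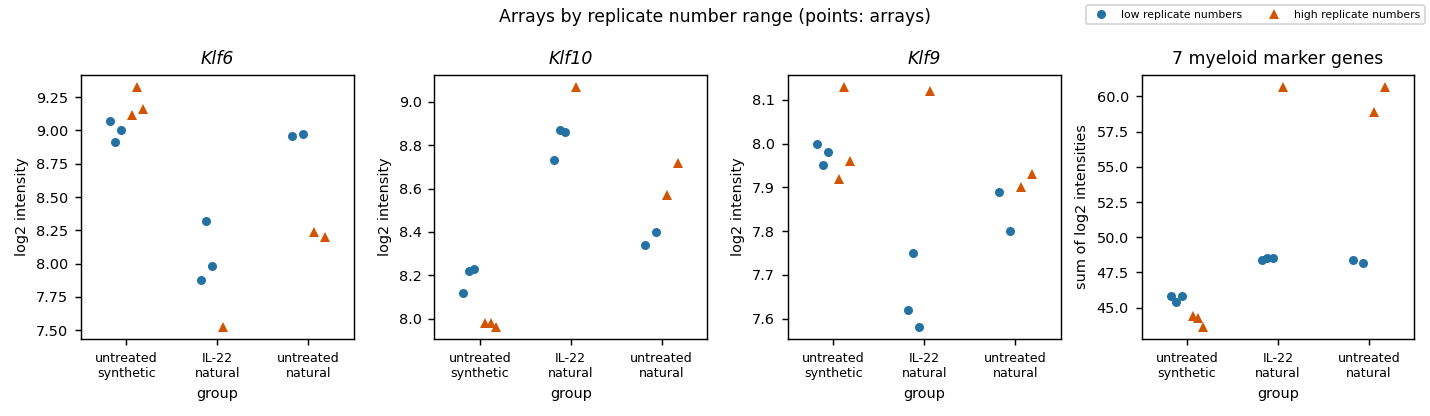
Log2 intensity of Klf6, Klf10 and Klf9, and summed log2 intensity of 7 myeloid marker genes, per array (points) in untreated synthetic receptor cells and in natural receptor cells with IL-22 or untreated, with low (circles) and high (triangles) replicate numbers. High-numbered natural receptor arrays sit at sums of 58.9 to 60.7 and at the low end of Klf6 in their group.

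RefSeq promoters (GRCm38.p6) were matched for 7 of the 8 genes, and the 250 bases before the start are shown for the 3 whose changes lead the results: Klf6 and Klf3, which fell with all 3 proteins, and Klf9, which rose with both synthetic receptor ligands. All 3 lie on the + strand, Klf6 at chr13:5861239-5861488, Klf3 at chr5:64803271-64803520 and Klf9 at chr19:23140976-23141225. Capitals mark matches, on either strand, to a STAT motif (TTCNNNGAA), a FOXO motif (GTAAACA), the CACCC box, a glucocorticoid receptor motif (AGAACA), or the NF-kB, CArG box and MEF2 motifs.
Klf6: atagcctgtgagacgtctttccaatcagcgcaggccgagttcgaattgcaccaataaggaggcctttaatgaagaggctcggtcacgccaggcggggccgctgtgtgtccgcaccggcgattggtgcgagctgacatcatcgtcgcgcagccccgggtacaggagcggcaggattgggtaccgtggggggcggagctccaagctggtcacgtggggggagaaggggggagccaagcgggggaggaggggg
Klf3: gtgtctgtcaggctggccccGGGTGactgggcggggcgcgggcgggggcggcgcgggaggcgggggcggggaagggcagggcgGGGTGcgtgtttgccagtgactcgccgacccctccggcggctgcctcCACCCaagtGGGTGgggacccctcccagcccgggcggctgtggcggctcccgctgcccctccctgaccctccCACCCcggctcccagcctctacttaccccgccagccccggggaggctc
Klf9: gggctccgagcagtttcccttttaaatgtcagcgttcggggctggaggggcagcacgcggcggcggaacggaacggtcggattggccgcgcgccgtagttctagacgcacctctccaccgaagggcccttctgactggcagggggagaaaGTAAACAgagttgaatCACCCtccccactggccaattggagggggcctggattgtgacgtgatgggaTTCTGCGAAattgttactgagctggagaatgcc
The Klf6 window holds none of these letters. The Klf3 window holds 5 CACCC boxes, none of which overlap, at a GC content of 78.4% against a median of 52.4% over 32851 promoters. The Klf9 window holds a FOXO match 100 bases before the start, a CACCC box 84 bases before it and the STAT match TTCTGCGAA 33 bases before it. Among all promoter windows of that length, 7.02% hold the STAT motif, 3.17% the FOXO motif and 52.0% a CACCC box. The glucocorticoid receptor motif is in 16.1%, the NF-kB motif in 7.25%, the MEF2 motif in 2.92% and the CArG box in 1.47%. Of the windows not shown, that of Klf7 holds 3 CACCC boxes, that of Klf13 1, that of Klf2 1 and a MEF2 match 118 bases before the start, and that of Klf4 none. A match is a run of letters and not a bound site.

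With IL-22, Klf10 rose, 1 of the 8 KLF genes, where 5.39% of all genes rose. Klf3 and Klf6 fell, 2 of 8, where 6.03% of all genes fell, and the other 5 did not pass the test. With GFP-mCherry, Klf9 rose, 1 of 8 against 14.2% of all genes, and Klf3, Klf6 and Klf7 fell, 3 of 8 against 11.8% of all genes. With mCherry-Fc, Klf9 again rose, 1 of 8 against 14.0% of all genes, and Klf3, Klf6 and Klf7 fell, 3 of 8 against 13.0%. With both synthetic receptor ligands the share of risers lay near that of all genes. In a set of 8 genes, 1 call more or fewer moves such a share widely. The last pair of comparisons shares its untreated arrays. Klf2, Klf4 and Klf13 passed in no comparison. The median log2 change over the 8 genes was -0.11 with IL-22, -0.09 with GFP-mCherry and -0.15 with mCherry-Fc, beside -0.02, -0.04 and -0.04 over all genes. No member changed by more than 1.59-fold. Since the arrays read whole cultures, fewer cells of a type and less RNA per cell cannot be told apart.

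**Figure D2:**
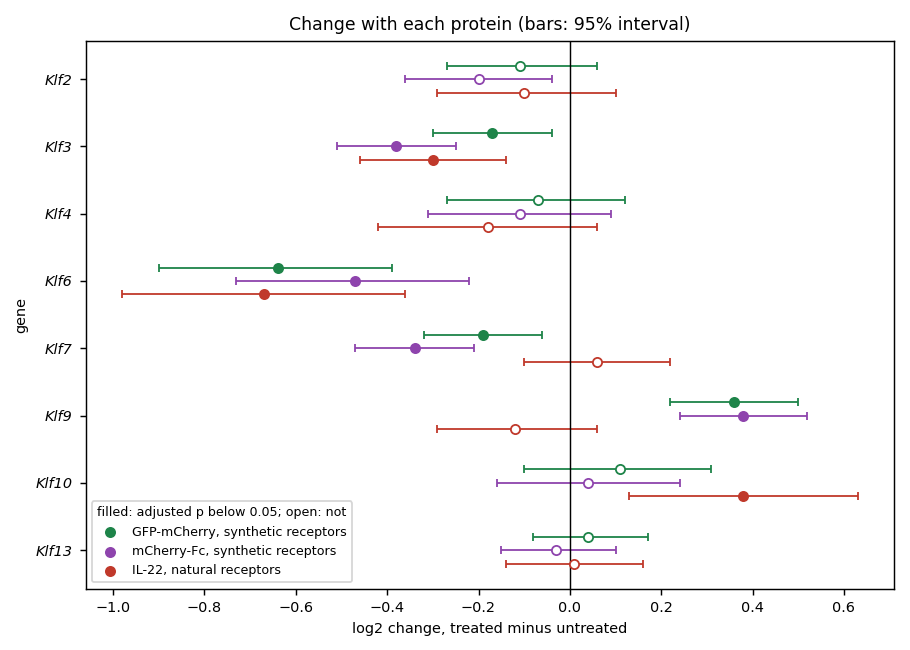
Log2 change of each KLF gene (rows) with GFP-mCherry or mCherry-Fc in synthetic receptor cells and with IL-22 in natural receptor cells, treated minus untreated, with 95% intervals (bars) and filled points for adjusted p below 0.05. Klf6 lies below 0 for all 3 proteins, and Klf9 above 0 for GFP-mCherry and mCherry-Fc.

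Klf6, an activator and in human cancers a tumour suppressor, had the largest change of the 8 genes with IL-22. The 4 IL-22 arrays read 7.88, 8.32, 7.98 and 7.52 (replicates 1, 2, 3 and 5), against 8.96, 8.97, 8.24 and 8.20 in the untreated arrays (replicates 2 to 5). The groups overlapped, as IL-22 replicate 2 lay above untreated replicates 4 and 5, but in each pair of the same number the IL-22 array was the lower one. The log2 change was -0.67 (SE 0.15, 1.59-fold lower, limma's Benjamini-Hochberg adjusted p = 0.00252). It was -0.90 within low numbers (adjusted p = 8.68e-05) and -0.70 within high numbers (adjusted p = 0.00526), so the fall was as large inside each number range. A fit with only these 8 arrays gave the same change with an adjusted p of 0.105.

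In synthetic receptor cells Klf6 read 8.27 to 8.66 with GFP-mCherry (median 8.46) and 8.44 to 8.74 with mCherry-Fc (median 8.64), against 8.91 to 9.33 in untreated cells (median 9.10). Neither treated group overlapped the untreated one. The change was -0.64 with GFP-mCherry (SE 0.12, adjusted p = 0.000295) and -0.47 with mCherry-Fc (SE 0.12, adjusted p = 0.00629), and both calls held without any single array and within each number range. GFP-mCherry minus mCherry-Fc was -0.17 (95% interval -0.43 to 0.08), which did not pass. In the order of group means, untreated synthetic receptor cells (9.10 ± 0.15) stood highest and IL-22 treated cells (7.93 ± 0.33) lowest, each different from its neighbour. The mCherry-Fc, untreated natural and GFP-mCherry groups between them (8.63, 8.59 and 8.46) did not pass against their neighbours.

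Klf7, an activator known from neuron development in the mouse, fell with both synthetic receptor ligands. It read 10.05 to 10.20 with GFP-mCherry (median 10.11) and 9.87 to 10.11 with mCherry-Fc (median 9.98), against 10.16 to 10.55 untreated (median 10.32). All mCherry-Fc arrays lay below all untreated ones, while the GFP-mCherry arrays overlapped the lowest untreated arrays. The change with mCherry-Fc was -0.34 (SE 0.06, adjusted p = 0.000293), and the call held under every alternative run. The change with GFP-mCherry was -0.19 (SE 0.06, adjusted p = 0.0248). That call was lost within low numbers (-0.07, adjusted p = 0.388), without GFP-mCherry replicate 7 (adjusted p = 0.0535) or untreated replicate 12 (0.0603) or 13 (0.0642), and in a fit of these groups alone (0.0515).

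With IL-22, Klf7 read 10.09, 10.26, 10.25 and 10.29, against 10.08, 10.11, 10.18 and 10.27 in untreated natural receptor cells, and the groups overlapped. The change of 0.06 (95% interval -0.10 to 0.22) did not pass. Across the 5 groups the means of Klf7 spanned 9.98 to 10.32, and no neighbours in their order passed the test.

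Array medians were lower on the treated synthetic receptor arrays, at 6.06 to 6.13 with GFP-mCherry and 6.06 to 6.14 with mCherry-Fc, against 6.17 to 6.28 untreated. Centring each array on its median moves the median change of all genes by 0.10 and 0.11 in these comparisons. Relative to that shift, Klf7 changed by -0.09 with GFP-mCherry (adjusted p = 0.404) and Klf3 by -0.07 (adjusted p = 0.487), so both lost their calls. The mCherry-Fc changes of Klf7 (-0.24), Klf3 (-0.28), Klf6 (-0.37) and Klf9 (0.49) still passed, as did the GFP-mCherry changes of Klf6 (-0.54) and Klf9 (0.46). No called change of a member turned its sign under any alternative run.

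The other activators did not pass. Klf2 read 7.16, 6.92, 6.94 and 6.96 with IL-22, against 7.09, 7.12, 7.01 and 7.13 untreated, and the groups overlapped (log2 change -0.10, adjusted p = 0.693). With mCherry-Fc it read 6.55 to 7.09 (median 6.81), against 6.83 to 7.20 untreated (median 7.00), a change of -0.20 (SE 0.08, adjusted p = 0.0598). That value lay near the threshold, and it passed without mCherry-Fc replicate 10 (-0.25, adjusted p = 0.0177) or 14 (-0.23, 0.0472), without untreated replicate 13 (-0.24, 0.0250), within low numbers (-0.35, 0.0496) and with dim genes left out (0.0428) or number range as a term (0.0424). With GFP-mCherry the change was -0.11 (adjusted p = 0.340). Klf4, a reprogramming factor, had group means of 5.95 to 6.13, below the median gene, with changes of -0.18, -0.07 and -0.11 for IL-22, GFP-mCherry and mCherry-Fc and adjusted p-values of 0.450, 0.601 and 0.413.

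**Figure D3:**
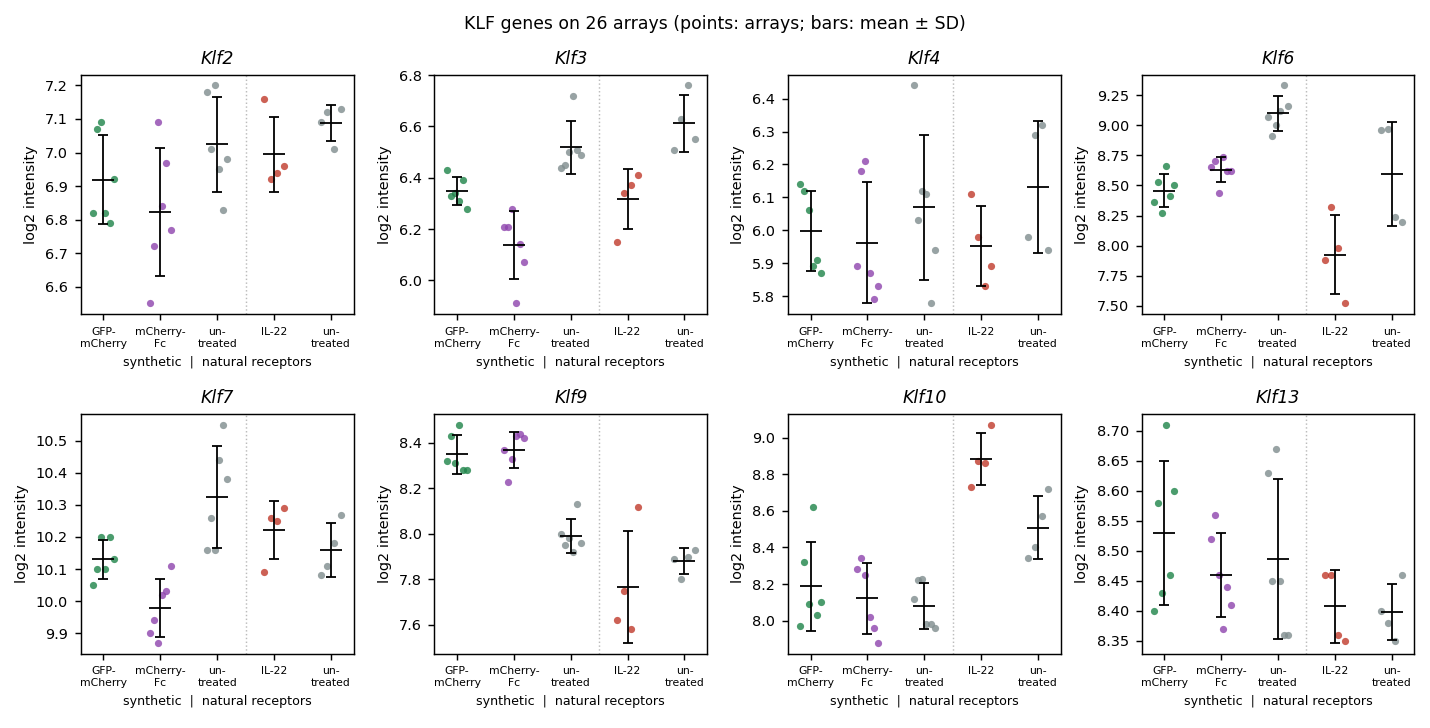
Log2 intensity of the 8 KLF genes on all 26 arrays (points) with group mean and SD (bars), synthetic receptor groups left of the dotted line and natural receptor groups right of it. Each panel has its own axis. Klf9 with GFP-mCherry and mCherry-Fc (8.23 to 8.48) lies above all untreated synthetic receptor arrays (at most 8.13), and Klf3 with mCherry-Fc (5.91 to 6.28) below them (at least 6.44).

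Klf3, the CtBP-dependent repressor, fell with all 3 proteins, most firmly with mCherry-Fc. It read 5.91 to 6.28 with mCherry-Fc (median 6.17) and 6.28 to 6.43 with GFP-mCherry (median 6.33), against 6.44 to 6.72 in untreated synthetic receptor cells (median 6.50). Neither treated group overlapped the untreated one. With mCherry-Fc the change was -0.38 (SE 0.06, adjusted p = 9.69e-05), and the call held under every alternative that tested Klf3. With GFP-mCherry it was -0.17 (SE 0.06, adjusted p = 0.0474), close to the threshold. That call was lost in 9 of the 12 fits that left out 1 array of these groups (GFP-mCherry replicates 9, 11, 12, 13 and 14 and untreated replicates 11, 12, 13 and 14), with adjusted p-values of 0.0543 to 0.128. It was also lost within each number range (-0.10 and -0.25, adjusted p = 0.285 and 0.0666), after quantile normalization (-0.08, adjusted p = 0.420) and with a robust prior (0.0559).

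With IL-22, Klf3 read 6.15, 6.34, 6.37 and 6.41, against 6.51, 6.63, 6.76 and 6.55 untreated, without overlap. The change was -0.30 (SE 0.08, adjusted p = 0.0104). With the replicate number as a block it was -0.19 and did not pass (adjusted p = 0.218), nor did it when IL-22 replicate 1 (-0.24, 0.0651) or untreated replicate 4 (-0.25, 0.0558) was left out, or within high numbers (-0.24, 0.462), or in a fit of these groups alone (0.0731). Within low numbers it was -0.28 (adjusted p = 0.0169). Both genes listed as repressed by KLF3, Lgals3 and Klf8, changed with none of the 3 proteins (log2 -0.18 to 0.06), and their adjusted p-values were 0.540 or higher.

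Klf9, a Sin3-dependent repressor, was the 1 member that rose with the synthetic receptor ligands. It read 8.28 to 8.48 with GFP-mCherry (median 8.32) and 8.23 to 8.44 with mCherry-Fc (median 8.39), against 7.92 to 8.13 untreated (median 7.97). All 12 treated arrays lay above all 6 untreated ones. The change was 0.36 with GFP-mCherry (SE 0.07, 1.28-fold, adjusted p = 0.000255) and 0.38 with mCherry-Fc (SE 0.07, 1.30-fold, adjusted p = 0.000206), and both calls held under every alternative run. GFP-mCherry minus mCherry-Fc was -0.02 (95% interval -0.16 to 0.12).

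With IL-22, Klf9 read 7.62, 7.75, 7.58 and 8.12, against 7.89, 7.80, 7.90 and 7.93 untreated. Of the IL-22 arrays 3 lay below every untreated array and replicate 5, the array with the high myeloid marker sum, above every one. The change was -0.12 (SE 0.08, adjusted p = 0.512). Without replicate 5 it was -0.23 and passed (adjusted p = 0.0169), within low numbers it was -0.20 (adjusted p = 0.0817), and within high numbers 0.20 (adjusted p = 0.476). In the order of group means, mCherry-Fc and GFP-mCherry (8.37 and 8.35) stood above the untreated synthetic group (7.99), which differed from them by the test. Untreated natural (7.88) and IL-22 (7.77) followed without a difference that passed.

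Klf10, an early TGF-beta gene also called TIEG1, rose with IL-22. It read 8.73, 8.87, 8.86 and 9.07, against 8.34, 8.40, 8.57 and 8.72 untreated, and the lowest IL-22 array lay just above the highest untreated one. The change was 0.38 (SE 0.12, 1.30-fold, adjusted p = 0.0410), close to the threshold. It was larger where number was accounted for: 0.45 with the replicate block (adjusted p = 0.0173), 0.44 with number range as a term (adjusted p = 0.00481) and 0.45 within low numbers (adjusted p = 0.00252). Leaving out IL-22 replicate 2, 3 or 5, or replicate 2, 3 or 4 of the untreated arrays, ended the call (adjusted p = 0.0572 to 0.137), as did quantile normalization (0.0762), a fit of these groups alone (0.0569) and the fit within high numbers (0.43, 0.319).

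In synthetic receptor cells Klf10 read 7.97 to 8.62 with GFP-mCherry (median 8.10) and 7.88 to 8.34 with mCherry-Fc (median 8.14), against 7.96 to 8.23 untreated (median 8.05), and all 3 groups overlapped. The changes of 0.11 and 0.04 did not pass (adjusted p = 0.445 and 0.794) and were below 0 after quantile normalization (-0.02 and -0.09). Klf13, a Sin3-dependent repressor that in human T cells activates the chemokine gene Ccl5, did not pass: its group means lay between 8.40 and 8.53, and its changes were 0.01, 0.04 and -0.03 with IL-22, GFP-mCherry and mCherry-Fc. The widest of their 95% intervals ran from -0.14 to 0.16. In the order of group means, Klf10 stood highest with IL-22 (8.88), then in untreated natural receptor cells (8.50), and each of these differed from the next group by the test. The 3 synthetic receptor groups (8.19, 8.12 and 8.08) did not pass against each other as neighbours. For Klf3 mCherry-Fc (6.14) was lowest and differed from IL-22 (6.32) by the test (adjusted p = 0.0425), and for Klf2, Klf4 and Klf13 no neighbours in the order passed the test.

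GFP-mCherry against mCherry-Fc asks whether joining both chains differs from joining IL-10R2 alone. Cells given these ligands differed in other genes, as Nfkbia averaged 11.73 with GFP-mCherry and 8.58 with mCherry-Fc. Of the 8 genes 0 passed limma's test, where 0.722% of all genes were higher and 0.371% lower, and 2 had an unadjusted p under 0.05. Klf3 was higher with GFP-mCherry by 0.21 (95% interval 0.08 to 0.34, adjusted p = 0.155), and the highest mCherry-Fc array met the lowest GFP-mCherry array at 6.28. Klf7 was higher by 0.15 (95% interval 0.02 to 0.28, adjusted p = 0.459). The remaining differences ran from -0.17 for Klf6 to 0.10 for Klf2, with intervals that all held 0. With the replicate block, 100 genes in all passed in place of 218, and still 0 members.

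The responses themselves were then compared between the lines, as the change with a synthetic receptor ligand minus the change with IL-22. For GFP-mCherry 1 of 8 members passed as higher and 0 as lower, where 9.23% and 4.40% of all genes did. For mCherry-Fc 1 of 8 was higher and 1 lower, where 8.76% and 4.60% of all genes were. The Klf9 response was higher by 0.48 with GFP-mCherry (95% interval 0.26 to 0.70, adjusted p = 0.00264) and by 0.50 with mCherry-Fc (0.28 to 0.72, adjusted p = 0.00211). Both held without any single array and within low numbers (0.58 and 0.53), but not within high numbers (0.14 and 0.23, adjusted p = 0.639 and 0.411), where the 1 IL-22 array is replicate 5.

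For Klf7 the difference was -0.41 with mCherry-Fc (95% interval -0.61 to -0.20, adjusted p = 0.00657), and the call was lost after median centring (-0.32, adjusted p = 0.0545). With GFP-mCherry its difference was -0.26 (adjusted p = 0.0893), and it passed with the replicate block (-0.31, adjusted p = 0.0444), number range as a term (-0.29, 0.0111), quantile normalization (-0.29, 0.0139), dim genes left out (0.0452) or without untreated synthetic replicate 7 (0.0496). For Klf6, which fell in both lines, the differences were 0.02 and 0.20 with 95% intervals of -0.38 to 0.42 and -0.20 to 0.59. With mCherry-Fc, it passed with number range as a term (0.36, adjusted p = 0.0227) and within low numbers (0.51, adjusted p = 0.0380). For Klf10 the differences were -0.27 and -0.34 (adjusted p = 0.285 and 0.160), and both passed within low numbers (-0.52 and -0.35, adjusted p = 0.00715 and 0.0498). The mCherry-Fc difference of Klf10 also passed with number range as a term (-0.40, adjusted p = 0.0392).

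**Figure D4:**
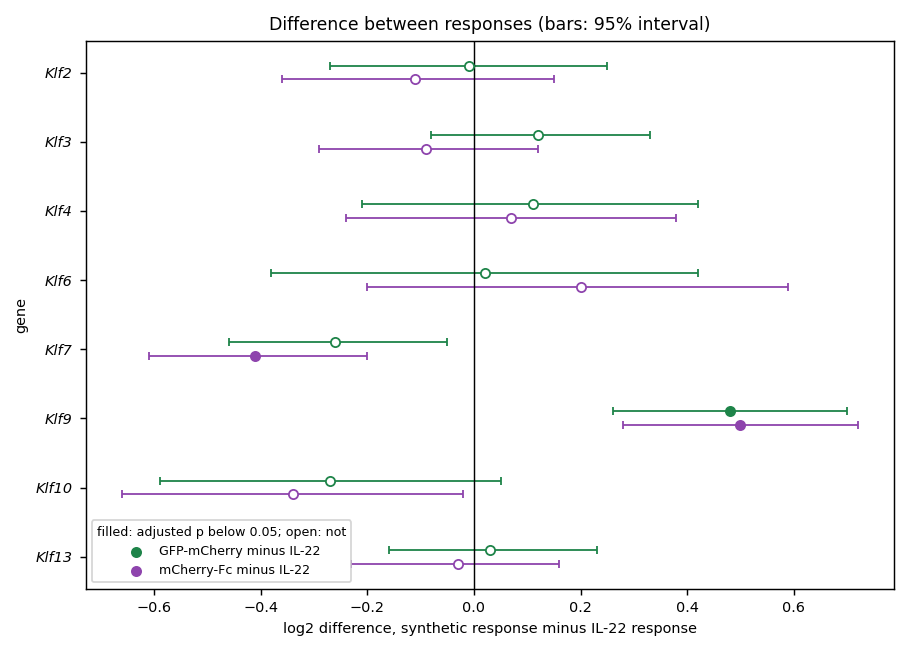
Difference in log2 response of each KLF gene (rows), GFP-mCherry or mCherry-Fc response in synthetic receptor cells minus IL-22 response in natural receptor cells, with 95% intervals (bars) and filled points for adjusted p below 0.05. Klf9 lies above 0 for both ligands (0.48 and 0.50), and Klf7 below 0 for mCherry-Fc (-0.41).

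Between the untreated lines, synthetic against natural receptor cells, 1 of 8 members was higher and 1 lower, where 8.60% and 6.62% of all genes were. Klf6 was higher, at 8.91 to 9.33 (median 9.10) in untreated synthetic and 8.96, 8.97, 8.24 and 8.20 in untreated natural receptor cells (log2 difference 0.51, SE 0.14, adjusted p = 0.0111). That difference was 0.03 within low numbers (adjusted p = 0.918) and 0.99 within high numbers (adjusted p = 1.1e-05), and it was lost without untreated natural replicate 4 (0.39, 0.0864) or 5 (0.38, 0.0869) and in a fit of these 2 groups alone (0.0541). Klf10 was lower, at 7.96 to 8.23 (median 8.05) against 8.34, 8.40, 8.57 and 8.72, without overlap (-0.42, SE 0.11, adjusted p = 0.00866). It was -0.18 within low numbers (adjusted p = 0.241) and -0.67 within high numbers (adjusted p = 0.00314), and did not pass without untreated natural replicate 5 (-0.35, 0.0549). Both differences were larger in the numbers where the natural receptor arrays had the high myeloid sums. Klf7 passed only within high numbers (0.23, adjusted p = 0.0294).

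The rest of the KLF family was read from a list of 9 other genes, all measured. With IL-22, Klf1 and Klf11 fell and 0 of 9 rose, beside the 6.03% and 5.39% of all genes. Klf1, which drives the globin genes in red cell precursors, fell to 7.23 ± 0.15 with IL-22, against 8.35 ± 0.09 untreated (log2 change -1.12, SE 0.07, adjusted p = 3.11e-12). Klf11, which like Klf10 is a TGF-beta early gene, fell by 0.40 (adjusted p = 0.0127). With GFP-mCherry, Klf1 fell by 0.40 (adjusted p = 1.5e-05) and Klf16, a Sin3-dependent repressor, rose by 0.38 (adjusted p = 3.66e-05). With mCherry-Fc, Klf16 rose by 0.34 (adjusted p = 0.000227), while Klf1 fell by 0.25, Klf5 by 0.27 and Klf14 by 0.28. Untreated synthetic receptor cells held more Klf1 than untreated natural ones (0.57, adjusted p = 6.17e-07) and less Klf16 (-0.23, adjusted p = 0.0213). Of 8 measured SP genes, 0 passed with IL-22 and 0 with mCherry-Fc, while Sp1 (-0.14), Sp3 (-0.19) and Sp4 (-0.41) fell with GFP-mCherry, where 11.8% of all genes fell.

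Genes that act on or with these factors changed in small groups. Their counts stand beside shares of all genes of 5.39% higher and 6.03% lower with IL-22, 14.2% and 11.8% with GFP-mCherry, and 14.0% and 13.0% with mCherry-Fc. Of 7 measured corepressor genes, Sin3a fell with IL-22 (-0.31), Hdac1, Hdac2 and Hdac3 rose with GFP-mCherry (0.16, 0.25 and 0.20), and Hdac2 and Hdac3 rose with mCherry-Fc (0.32 and 0.17). Of 6 ubiquitin ligase genes, Smurf1 and Vhl fell with IL-22 (-0.29 each). Smurf1 rose with GFP-mCherry (0.19) and mCherry-Fc (0.27), as did Vhl (0.25 and 0.16) and Fbxw7 (0.24 and 0.20), the last of which marks KLF2 for decay in human cells, and Fbxo32 fell with GFP-mCherry (-0.19). Of 8 genes upstream of KLF2 and KLF4, Map3k3 rose (0.34) and Foxo3 fell (-0.67) with IL-22. Mef2a (-0.26), Mef2d (-0.23) and Foxo3 (-0.32) fell with GFP-mCherry, and Mef2d (-0.42) and Mapk7 (-0.16) with mCherry-Fc. S1pr1 and Itgb7, targets by which KLF2 steers lymphocyte traffic, passed in none of these comparisons (log2 changes of -0.24 to 0.03).

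Lists of genes tied to signals that can switch on single members are given beside the results. These signals were not measured, and their part in the changes of the KLF genes was not tested. The list set beside Klf10 has 8 measured TGF-beta genes, and holds receptor and other pathway genes as well as early targets. Smad7 and Skil rose by 0.71 and 0.73 with IL-22, 0.32 and 0.66 with GFP-mCherry, and 0.40 and 0.30 with mCherry-Fc. Ski fell with all 3 proteins (-0.28, -0.21 and -0.24). Tgfbr1, a receptor chain, rose with IL-22 (0.66) and with mCherry-Fc (0.38, adjusted p = 0.0472), Tgif1 with GFP-mCherry (0.29) and mCherry-Fc (0.26), and Tgfb1 with GFP-mCherry (0.25). In all, 3 rose and 1 fell with IL-22, where 5.39% and 6.03% of all genes did, and 4 rose and 1 fell with each synthetic receptor ligand, where 14.2% and 11.8% did with GFP-mCherry and 14.0% and 13.0% with mCherry-Fc. Of 6 glucocorticoid receptor targets, the list set beside Klf9, Zbtb16 (-0.87), Tsc22d3 (-0.36) and Fkbp5 (-0.26) fell with IL-22. With the synthetic receptor ligands Fkbp5 rose (0.33 with GFP-mCherry and 0.34 with mCherry-Fc) and Tsc22d3 fell (-0.45 and -0.31). Of 8 FOXO targets, Ccng2 (-1.97), Cdkn1b (-1.29), Sesn1 (-1.01) and Pik3ip1 (-0.84) fell with IL-22 and Bcl6 rose (1.49). With GFP-mCherry, Sesn1 rose (0.40) and Pik3ip1 (-0.37) and Irs2 (-0.23) fell, and with mCherry-Fc Pik3ip1 fell (-0.31). The lists' medians with IL-22 were -0.06, -0.30 and -0.42 for TGF-beta, glucocorticoid and FOXO genes, beside -0.02 over all genes. In the same order they were 0.24, -0.01 and -0.05 with GFP-mCherry, beside -0.04 over all genes. With mCherry-Fc they were 0.18, -0.13 and -0.09, beside -0.04.

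Marker genes of other cell types are given beside these results. Of all genes, 5.39% rose and 6.03% fell with IL-22. With GFP-mCherry 14.2% rose and 11.8% fell, and with mCherry-Fc 14.0% and 13.0%. With IL-22, 1 of 7 myeloid markers, Prtn3, rose and 0 fell, and the summed level spanned 48.4 to 60.7 with IL-22 and 48.2 to 60.7 untreated. With GFP-mCherry and with mCherry-Fc 1 of 7 rose, at sums of 44.3 to 45.3 and 44.1 to 45.8, against 43.6 to 45.8 untreated. Between the untreated lines, 4 of 7 were lower and 1 higher in synthetic receptor cells, where 6.62% and 8.60% of all genes were. The lower ones were Itgam (-4.75), Mpo (-1.79), Adgre1 (-1.49) and Lyz2 (-1.46). Within low numbers the untreated lines overlapped for Mpo (7.15 to 7.19 in synthetic, 7.16 to 7.19 in natural receptor cells). They also overlapped for Lyz2 (5.11 to 5.26 and 5.11 to 5.24). They did not for Itgam (5.85 to 5.99 and 8.77 to 8.85) and Adgre1 (4.36 to 4.52 and 4.73 to 4.80). Of 4 measured erythroid markers, Klf1, Tfrc and Epor fell with IL-22 (-1.12, -0.33 and -0.26), while Tfrc and Epor rose with GFP-mCherry (0.43 and 0.26) and with mCherry-Fc (0.26 and 0.25). Of 6 mast cell and basophil markers, Gata2, which erythroid precursors also use, fell with IL-22 (-1.04, adjusted p = 7.67e-08), and Mcpt8 fell with GFP-mCherry (-0.25) and mCherry-Fc (-0.20). Above the median gene (6.53) lay the means of 0 of 7 T cell and 3 of 11 pro-B markers. So did those of 3 of 7 myeloid, 2 of 6 mast cell and basophil, and 3 of 4 erythroid markers. Gata2 (12.22), Tfrc (11.10) and Prtn3 (10.55) had higher means than Cd79a (9.55), the brightest pro-B marker. None of these T cell genes passed with IL-22, while Cd247 (-0.18) and Zap70 (-0.19) fell with GFP-mCherry, and Cd3e (-0.27), Zap70 (-0.26), Cd4 (-0.24) and Cd247 (-0.20) with mCherry-Fc. Their summed level was 38.14 to 39.23 with GFP-mCherry and 37.90 to 39.22 with mCherry-Fc, against 38.29 to 40.52 untreated. After median centring, 597 genes in all fell with GFP-mCherry in place of 2344, and 614 with mCherry-Fc in place of 2583. The T cell genes were not read after centring, so whether their calls hold there is not known. Of 11 pro-B markers, Cd79b fell with IL-22 (-0.29), Vpreb2 and Vpreb3 fell with GFP-mCherry (-0.31 and -0.25) and with mCherry-Fc (-0.33 and -0.31), and Cd79a rose with GFP-mCherry (0.21). The part of these markers in the changes of the KLF genes was not tested.

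The genes most like each member over the 26 arrays were listed by Pearson's r, as a description of arrays that share line, treatment and number range. Klf10 was most like Tgm2 (0.954), Pdcd1lg2 (0.950) and Ube2l6 (0.943), and Klf9 like Aldh9a1 and Ubxn1 (0.951 each) and Lonp2 (0.950). Klf6 was most like Nosip (0.932), Dock10 (0.927) and Dnajb12 (0.923), and Klf7 like Ptpn23 (0.913), Uprt (0.867) and Synj1 (0.839). Klf4 was most like Fscn2 (0.873), Ppp1r21 and Sox1, Klf3 like Grm4 (0.817), Cblb and Folr2, Klf2 like Drd5 (0.809), Htr3b and Plcd1, and Klf13 like Use1 (0.768), Hoxc5 and H4f16. Among the members, the values of Klf6 and Klf10 ran opposite over the 26 arrays (r = -0.67), and less so once group means were taken off (-0.26).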

How the data were processed

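Each probe set has a deposited log2 intensity, which the authors made with Affymetrix Expression Console 4.0, per the submitters' processing notes. The algorithm and background correction are not given in the sources used here. Values spanned 1.79 to 14.31, with array medians of 6.06 to 6.28 and correlations within groups of 0.981 to 0.994, and no 2 arrays were identical.

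The array holds 35556 probe sets. A platform annotation, which can be old, gives 1 symbol to 21789 of them, several to 1621 (left out) and none to 12146. Entrez identifiers matched current records for 21698, and 91 kept the annotation's name. For 999 genes with several probe sets the brightest was used, which left 19938 genes. Each member has 1 probe set.

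All 26 arrays in 5 groups entered 1 linear model (R 4.3.3, limma 3.58.1, lmFit and eBayes). It was first tested on simulated data with independent noise and changes set in the IL-22 group only. Those data held no split by replicate number and no shift of array medians, so that test does not cover these features. Tests were two-sided with Benjamini-Hochberg adjustment over 19938 genes and a threshold of 0.05, in 7 comparisons. Rose and fell describe genes past it. All 10 pairs of groups were tested for the order of levels. No filter on dim genes was applied.

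Replicate numbers come from the titles. Deviations from group means correlated between arrays of the same number at 0.31 to 0.62 for IL-22 and untreated. The range was 0.11 to 0.27 for GFP-mCherry and mCherry-Fc, and 0.26 to 0.47 for mCherry-Fc and untreated. These were taken as paired, and GFP-mCherry and untreated (-0.15 to 0.42) were not. Among those taken as paired, the array of the same number was the most alike for numbers 2 and 5 with IL-22 and untreated. In each pair of groups with mCherry-Fc it was so for number 13 alone. For their other shared numbers an array of another number was more alike. The main fit holds no pairing term, and the numbers enter only in the replicate block.

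Named genes are all members, genes of the related lists past the threshold and changed at least 1.5-fold, up to 3 others of smallest p per list and comparison, the 3 genes most like each member, and Socs3 and Il22ra1. Members and lists were chosen with earlier results of these data known. Klf11, Klf14, Sin3a, other list genes under 1.5-fold, marker genes, Nfkbia and Cish were named after their values were seen. Promoter sequences and Entrez matches are from RefSeq (GRCm38.p6). Alternatives were quantile normalization, median centring, mean of a gene's probe sets, a filter on dim genes, a trended and robust prior, only the groups compared, the replicate block, number range as a term or alone, and leaving out each array.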

Additional observations from a re-analysis of the deposited data

Results flagged for a closer look

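The highest untreated synthetic receptor array for Klf3, replicate 12, stood apart from the others of its group at a log2 intensity of 6.72, with the nearest array at 6.51 and the lowest at 6.44. Its gap was 0.74 of the group's range. Of 40 combinations of gene and group tested this was the 1 that stood out, and chance gives about 1 in 20. Without that array the GFP-mCherry change of Klf3 was -0.13 (limma's adjusted p = 0.128).

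The tests of the difference between responses picked out Klf9, whose log2 response to GFP-mCherry minus that to IL-22 was 0.48 (adjusted p = 0.00264) and whose response to mCherry-Fc minus that to IL-22 was 0.50 (adjusted p = 0.00211). Klf9 passed with both synthetic receptor ligands, and its change with IL-22 was -0.12 (adjusted p = 0.512). They also picked out Klf7, whose response to mCherry-Fc minus that to IL-22 was -0.41 (adjusted p = 0.00657).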

How the results depend on the processing

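Over 56 member results and 1282 alternative values, 1220 kept their direction or lack of a call and their side of the threshold, 44 lost a call, 18 gained one and 0 turned a call round. The 16 called results changed sign in 0 of 353 values. Calls of members, given first in the main fit, were 3 with IL-22 (0 with only the groups compared, 1 within high numbers, 1 to 3 leaving out 1 array), 4 with GFP-mCherry (2 with median centring, 2 within low numbers, 2 to 4 leaving out 1 array) and 4 with mCherry-Fc (4 to 5). The response to GFP-mCherry minus that to IL-22 gave 1 (2 with quantile normalization, 2 with dim genes left out, 2 with the replicate block, 2 with number range as a term, 2 within low and 0 within high numbers, 1 to 2 leaving out 1 array). The mCherry-Fc difference gave 2 (1 with centring, 4 with number range as a term, 4 within low and 1 within high numbers). The untreated lines gave 2 (1 with only these groups, 0 within low numbers, 0 to 2 leaving out 1 array). Over all genes, IL-22 calls were 2277 (1222 with only these groups, 759 within high numbers) and mCherry-Fc calls 5371 (3146 after quantile normalization). GFP-mCherry against mCherry-Fc gave 218 (460 with only these groups, 100 with the replicate block, 469 with number range, 504 within low numbers). The GFP-mCherry difference gave 2718 (4153 with number range, 4583 within low and 916 within high numbers), the mCherry-Fc difference 2664 (4279, 4253 and 872) and the untreated lines 3034 (1722 with only these groups, 5750 within high numbers). The higher share of calls was 54.8% with GFP-mCherry and 51.9% with mCherry-Fc, 88.5% and 88.8% after centring, and 70.4% and 73.8% without dim genes. For the 2 differences it was 67.7% and 65.6%, and 83.2% and 82.8% after centring, 54.7% and 51.7% after quantile normalization. The replicate block ended the Klf3 call with IL-22 (-0.19) and changed the Klf7 difference with GFP-mCherry (-0.31), and no other member's call. Between GFP-mCherry and untreated cells, whose numbers were not taken as paired, it gave 6562 calls in place of 5183. No block could be fitted between the untreated lines, whose numbers differ. The filter on dim genes leaves out Klf3 and Klf4. Where no value above shows it, the cause of a change was not tested.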
